A study of Danio rerio with 25 samples.

Results

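The genes described here were lower in every cdkn1a crispant library than in every wild-type (WT) library. They were chosen on measured values. Levels are counts per 1000000 (CPM), that is, the count of a gene divided by the total of its library and scaled to that number. A gene was taken when its mean over the 10 libraries of the crispant experiment was at least 1 CPM, its highest crispant level was below its lowest WT level, and its crispant mean was at most 0.6 of its WT mean. Of 32520 genes, 20358 reached the minimum of the mean and 120 met the whole rule. This is 0.589% of those above the minimum, and the levels of these members in the crispant experiment are therefore a description, with no test. The same rule turned round, for genes higher in every crispant library, was met by 45 genes. Leaving out 1 library at a time changed the number by over 1.5 times in 2 cases, to 196 members without WT 3 and 186 without WT 5, the order then resting on fewer libraries.

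Whole zebrafish larvae were sequenced in 2 experiments. In the first, larvae of the Tg(Ola.Sp7:nlsGFP) line, whose bone-forming cells carry a green nuclear marker driven by medaka sp7 sequences, were kept in dexamethasone (DEX), a synthetic glucocorticoid, and 3 libraries were made on each day from D3 to D7. The labels count these days after DEX, whereas the methods count them after fertilization. In the second, 5 libraries of WT larvae, labelled Control, were set beside 5 libraries of cdkn1a crispants, titled sgCdkn1a. The treatment field of these 5 runs from sgCdkn1a to sgCdkn5a over the replicates, and they were all taken as cdkn1a crispants from their titles. Crispants are injected embryos of the founder generation (F0), which received Cas9 protein and pooled guide RNAs to cdkn1a at the one-cell stage and are mosaic, so that edited and unedited cells occur in the same larva. The labels give the crispant and WT libraries no day, whereas the methods name a range of days. Larvae of these days without DEX were not analysed here, and differences over the course therefore hold normal growth together with the exposure. Nothing in the labels says whether the libraries of a group came from separate clutches, and p-values therefore measure the spread between these libraries only. In whole larvae, fewer cells of a type and less RNA per cell cannot be told apart.

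Between 30330699 and 38467088 reads per library were counted in the crispant experiment and between 13685297 and 21812411 in the DEX course. The crispant experiment holds 2 sets of libraries, with WT 1 to 3 and crispants 1 to 3 in the first set and WT 4 and 5 with the crispants whose numbers 1 and 2 occur again in the second. The crispant columns were divided where their numbers start again in the table, and the WT columns by their likeness to each other. Libraries of the same group differed more between sets than WT differed from crispants within a set, with root mean square log2 differences of 0.514 to 0.640 against 0.317 to 0.475. For WT this is in part built in, since its sets were divided by likeness. The edited gene itself, cdkn1a (ENSDARG00000076554), was not a member. In WT libraries 1 to 5 it was at 17.8, 18, 20.5, 3.69 and 4.7 CPM, and in the crispants at 8.44, 9.98, 8.18, 1.68 and 1.72 CPM. Within each set it was lower in every crispant than in every WT library, but the WT libraries of the second set lay below the crispants of the first. All values of this kind are given in the order WT 1 to 5 and crispants 1 to 3 of the first set, then 1 and 2 of the second set, and in the order a, b and c for the libraries of a DEX day.

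cdkn1a encodes p21, an inhibitor of cyclin-dependent kinases that is switched on by p53 and arrests the cell cycle. Growth factors, cAMP, stress and injury set off an immediate and early transcriptional response in many cell types. Among its central factors are the Fos, Jun and ATF proteins, which pair through leucine zippers as the dimer AP-1 and switch on secreted factors, proteases and metabolic enzymes. Another arm runs through CREB and CREM, which read cAMP, and through salt-inducible kinases and NR4A receptors, which are themselves induced by it. In bone, AP-1 factors act both in osteoblasts and in osteoclasts.

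The median ratio of crispant mean to WT mean was 0.497 over the 120 members, with a range from 0.0686 to 0.595. Over all genes above the minimum it was 0.99. The ratio was at or below 0.5 for 61 members and at or below 0.25 for 9. The WT means ran from 1.56 to 429 CPM with a median of 19.9 CPM, so members were found among weakly and strongly expressed genes alike. The mere order, with every crispant below every WT library, held for 401 genes (1.97%), and the reverse order for 280 genes (1.38%). At the limit of the ratio, si:ch211-181p13.2 was just inside at 0.595 and CCN1, a secreted matrix-associated protein, just outside at 0.601. At the minimum of the mean, il11a was inside at 1.07 CPM and si:dkeyp-122d12.1 outside at 0.962 CPM. At the limit of the order, SLC26A5 was inside, with 35.12 CPM in its highest crispant and 35.16 CPM in its lowest WT library, and SLC25A29 outside, with 2.079 and 2.075 CPM. A gene symbol was paired with 115 members, and 5 had none. Symbols in capitals are human-style names, and 27 members share theirs with another zebrafish gene.

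**Figure D1:**
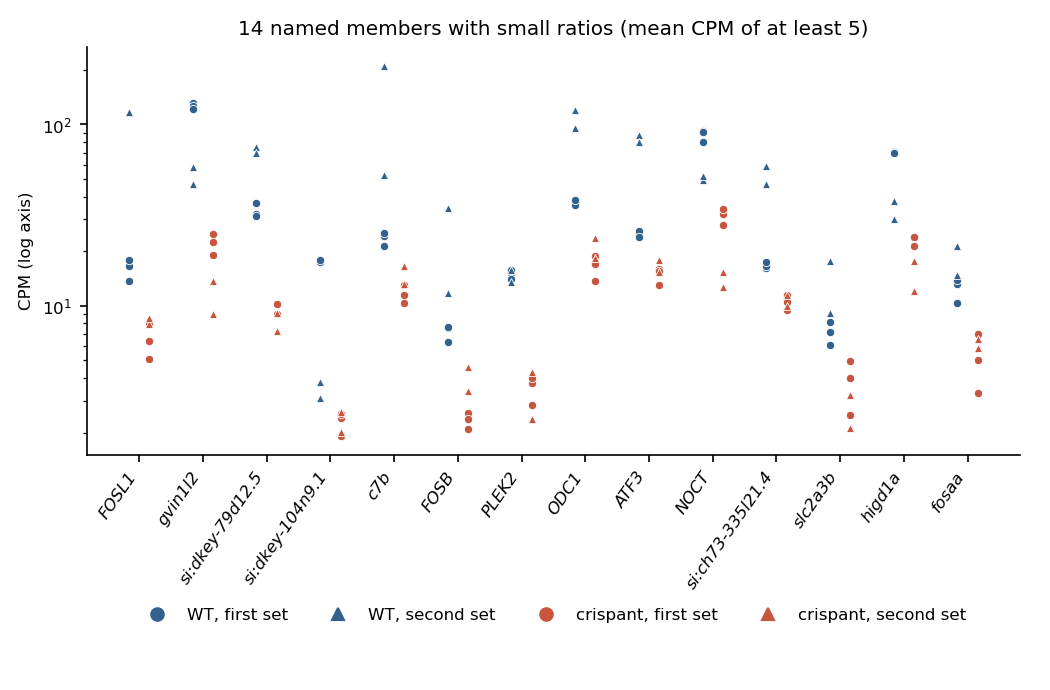
CPM on a log axis of 14 named members with small ratios, in 5 WT libraries (blue) and 5 crispant libraries (red), with circles for the first set and triangles for the second. In each gene all red points lie below all blue ones, as the rule requires, and the second WT set stands above the first for FOSL1, ATF3 and ODC1 but below it for gvin1l2, NOCT and higd1a.

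Transcription factors of the AP-1 and CREB families made up 9 members. Their median ratio was 0.406, and they included the third smallest ratio of all members. FOSL1 (Fra-1), a Fos protein that pairs with Jun, was at 16.5, 17.8, 13.8, 117 and 117 CPM in WT and at 6.37, 5.07, 8.08, 7.92 and 8.6 CPM in crispants. Its WT libraries of the second set thus stood several times above those of the first, while all crispants stayed below 9 CPM. ATF3, a stress-induced AP-1 and CREB-family repressor, was at 25, 25.7, 23.8, 87.1 and 80.1 CPM in WT and at 13.1, 15.9, 15.6, 18 and 15.3 CPM in crispants. FOSB was at 7.58, 7.64, 6.34, 11.7 and 34.4 CPM in WT and at 2.1, 2.55, 2.37, 4.59 and 3.39 CPM in crispants. Both genes shared the higher level of the second WT set, and for FOSB most of it lay in WT 5.

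fosaa, a zebrafish Fos paralogue, was at 13.2, 14, 10.4, 14.7 and 21.4 CPM in WT and at 3.31, 6.98, 5.04, 5.83 and 6.54 CPM in crispants, and its ratio was 0.376. FOSL2 (Fra-2), another Fos protein, was at 45.8, 42.3, 41.3, 72.7 and 62.3 CPM in WT and at 33.2, 31.3, 35, 25.5 and 22.5 CPM in crispants. The small Maf protein MAFK, which binds DNA but has no activation domain, had a ratio of 0.406. The cAMP-response factor CREB5 (ENSDARG00000099002) had one of 0.434. Another gene named CREB5 (ENSDARG00000070536) had a ratio of 0.595, but its groups overlapped and it was not a member. crema and cremb, copies of the cAMP response element modulator, had ratios of 0.456 and 0.497. These CREM copies were the only 2 of the 9 whose WT libraries of the first set lay above those of the second, whereas the other 7 had the reverse order.

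Set against their families, the members were a part of the genes measured. Of 17 AP-1 and small Maf genes above the minimum, 7 were lower in every crispant and 6 were members, and the median ratio of all 17 was 0.558. Jun-family genes were not among the members, and neither was FOS itself. FOS was at 56.7, 48.8, 58.1, 199 and 257 CPM in WT and 73.7, 72.1, 72.9, 146 and 156 CPM in crispants, a ratio of 0.839. Its crispants lay above WT in the first set and below it in the second. JUN was at 76, 76.3, 74.8, 129 and 125 CPM in WT and 77.8, 80.2, 80.3, 95.6 and 89 CPM in crispants, so that in the first set the crispants stood slightly above WT and in the second below it. JUND was lower in every crispant but had a ratio of 0.612, just outside the rule. Of 17 CREB, NR4A, SIK and CSRNP genes, 8 were lower in every crispant and 6 were members, with a median ratio of 0.637 over the 17. The families were listed after the members were known, so these counts are a description.

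Another 8 members were transcriptional regulators of other kinds, with a median ratio of 0.503. KLF4, a zinc-finger factor of epithelia and stem cells, had the lowest ratio among them, 0.291, at 5.23, 5.28, 3.95, 8.55 and 11.4 CPM in WT and 1.78, 1.58, 1.09, 2.71 and 2.84 CPM in crispants. NR4A3, an orphan nuclear receptor of the early response, was at 47.5, 39.3, 42.1, 25.9 and 37.6 CPM in WT and 20.5, 19.1, 20.4, 13.6 and 15.3 CPM in crispants. CSRNP1, an early-response nuclear protein first described as induced by axin, and ets2, an ETS factor downstream of Ras and MAP kinase signalling, had WT means 1.88 and 1.99 times as high in the second set as in the first. nfil3-6, a copy of the repressor NFIL3, cited4a, a CBP- and p300-binding coactivator, the zinc-finger repressor bcl6ab and tefb had ratios of 0.474, 0.563, 0.581 and 0.574. tefb, a clock-controlled PAR-domain leucine-zipper factor, was at 167, 179.6, 138, 120.0 and 99.8 CPM in WT and 76.9, 81.1, 72.8, 84.4 and 89.3 CPM in crispants.

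Kinases and signalling adaptors gave 11 members with a median ratio of 0.553. SIK1, the salt-inducible kinase that restrains CREB coactivators, had the highest WT mean of the group, at 254, 268, 239.6, 275 and 317 CPM in WT and 123, 129, 126, 129 and 144 CPM in crispants. The crispants of both sets thus lay together, and every WT library stood well above them. sgk1, a serum- and glucocorticoid-induced kinase, was at 263, 262, 257, 244 and 231 CPM in WT and 144, 146, 149.7, 142 and 132 CPM in crispants. For sgk1 the sets differed little beside the groups. DDIT4 (REDD1), an inhibitor of the growth-promoting complex mTORC1, was at 122, 119, 119, 135 and 135 CPM in WT and 70.5, 70.8, 65.3, 55.5 and 47 CPM in crispants. ARRDC3, an arrestin-domain adaptor that lowers receptors from the cell surface, was at 170.4, 168, 165, 280.5 and 244 CPM in WT and 93.5, 94.9, 88, 161 and 143 CPM in crispants (ENSDARG00000036028). The other 7, in order of their ratios, were the insulin-receptor adaptor GRB10 at 0.443, the kinase STK35 at 0.493, the NOD-pathway kinase RIPK2 at 0.524, the Ras GTPase-activating protein RASA2 at 0.553, the actin adaptor BAIAP2 at 0.565, the NF-κB adaptor bcl10 at 0.581 and the pseudokinase trib1 at 0.584.

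Secreted and matrix proteins gave 12 members, among them the second smallest ratio of all. The group was put together by hand and includes serpinb1l4, whose secretion was not examined. il11a, a cytokine of the interleukin-6 family, was at 0.317, 0.546, 0.917, 5.0 and 3.18 CPM in WT and 0.0955, 0.139, 0.033, 0.271 and 0.209 CPM in crispants, a ratio of 0.075 on low counts. c7b, a complement component of the membrane attack complex, was at 24.1, 25.3, 21.5, 211 and 52.6 CPM in WT and 11.5, 10.4, 13, 16.6 and 13.1 CPM in crispants, and WT 4 alone held the high value. IGFBP1, which binds insulin-like growth factors and is induced by fasting, hypoxia and glucocorticoids, was at 213, 189.8, 209, 198 and 195 CPM in WT and 94.6, 101, 95.4, 122 and 99.3 CPM in crispants. TIMP2 (ENSDARG00000075261), an inhibitor of matrix metalloproteinases, was at 15.5, 16, 17.3, 37.7 and 16.2 CPM in WT and 11.2, 10.01, 11.4, 7.22 and 6.65 CPM in crispants, so that the gap to the crispants was widest for WT 4. The protease ADAMTS1, the peptide hormone adm2a, the endothelial lipase LIPG, the EGF-receptor ligand HBEGF, the vessel factor ANGPT2 and the clade B serpin serpinb1l4 had ratios between 0.384 and 0.552.

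Transporters of the cell and mitochondrial membranes gave 10 members. The group held 2 glucose transporters, slc2a3b at 8.14, 7.2, 6.06, 17.7 and 9.12 CPM in WT and 4.97, 4.02, 2.51, 3.2 and 2.11 CPM in crispants, and SLC2A1 (ENSDARG00000007412) at 29.4, 31.8, 22, 17.9 and 16.2 CPM in WT and 10.3, 10.8, 11.6, 10.3 and 14.4 CPM in crispants. SLC20A1 (ENSDARG00000010641), a phosphate transporter, was the most strongly expressed, at 233, 231, 219, 283 and 262 CPM in WT and 124, 122, 125, 112 and 129 CPM in crispants, with all crispants between 112 and 129 CPM. The lactate exporter SLC16A3 had a ratio of 0.446, its relative SLC16A6 (ENSDARG00000060246) one of 0.408, the lysophospholipid transporter MFSD2A one of 0.519 and the mitochondrial ATP and phosphate carrier SLC25A25 one of 0.57. SLC35G1, the potassium channel kcnk1a and SLC26A5, of the anion transporters, completed the group at 0.523, 0.53 and 0.581. Receptors gave 4 members, namely OXER1 for oxidized fatty acids, the constitutively active cAMP-raising receptor gpr3, the lipoprotein receptor ldlrb and F2RL1, a receptor opened by proteases, with ratios from 0.436 to 0.565.

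Enzymes of polyamine, nucleoside and haem metabolism gave 5 members. ODC1, the rate-limiting enzyme of polyamine synthesis, was at 37.7, 36, 38.3, 121 and 95.6 CPM in WT and 18.8, 13.7, 16.9, 18.4 and 23.8 CPM in crispants. SAT1 (ENSDARG00000095908), which acetylates polyamines for breakdown and export, was at 79.7, 67.5, 81.6, 114 and 118 CPM in WT and 54.7, 61.8, 54.8, 47.4 and 49.8 CPM in crispants. Both had higher WT levels in the second set, and both directions of the polyamine cycle were thus among the members, beside 13 polyamine genes measured with a median ratio of 0.904. A purine nucleoside phosphorylase, PNP (ENSDARG00000078619), had the highest WT mean of all members, 429 ± 51 CPM (SD, n = 5), against 250.3 ± 75 CPM in crispants, and another PNP gene (ENSDARG00000099802) had a ratio of 0.526. BLVRA, which reduces biliverdin to bilirubin, was at 7.4, 6.71, 5.45, 2.65 and 2.79 CPM in WT and 0.987, 1.16, 1.48, 1.9 and 2.32 CPM in crispants, so in the second set the groups were less than 1 CPM apart.

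Lipid metabolism gave 9 members with a median ratio of 0.497. PRELID3B, which carries phospholipids between mitochondrial membranes, was the most strongly expressed, at 258, 276, 271, 132 and 131 CPM in WT and 118, 117, 111, 53.8 and 59.3 CPM in crispants. Its mean in the second set was 0.489 of that in the first in WT and 0.490 in crispants. The cholesterol ester hydrolase NCEH1 had the smallest ratio of the group, 0.327, followed by acss2l, related to acetyl-CoA synthetases, at 0.407. The others were SPTLC2, a subunit of the enzyme that starts sphingolipid synthesis, the fatty acid elongase ELOVL1, the phospholipid hydrolase ABHD4, the acyl-CoA synthetase ACSL4, the lysophosphatidic acid phosphatase ACP6 and ldah, a lipid droplet hydrolase, with ratios from 0.489 to 0.584.

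The remaining 52 members fell into none of these groups, and 5 of them have no symbol. The smallest ratio of all members, 0.0686, belonged to one of these, ENSDARG00000114451, at 9.77, 6.73, 7.89, 189 and 111 CPM in WT and 5.06, 4.21, 5.87, 2.52 and 4.62 CPM in crispants. gvin1l2, named after very large interferon-induced GTPases, was at 131, 126, 122, 46.8 and 58.6 CPM in WT and 25, 22.5, 19.1, 8.98 and 13.7 CPM in crispants. NOCT (ENSDARG00000077726), nocturnin, a rhythmic phosphatase of NADP, was at 91.7, 90.9, 80.1, 49.1 and 51.9 CPM in WT and 32.2, 27.8, 34.1, 12.7 and 15.3 CPM in crispants. These had the reverse order of sets, with the first WT set higher. PLEK2, a pleckstrin of the actin cytoskeleton, was at 15.2, 15.8, 14, 15.8 and 13.5 CPM in WT and 3.76, 3.99, 2.84, 2.39 and 4.3 CPM in crispants and did not follow the sets. si:dkey-79d12.5 and si:dkey-104n9.1, which have clone names only, had ratios of 0.187 and 0.191. The ratio of higd1a, a mitochondrial protein induced by hypoxia, was 0.357. The translation-related BZW1 (ENSDARG00000099148), the ubiquitin-pathway member lonrf1, MIDN and the splicing factor srsf3a had ratios of 0.482, 0.419, 0.529 and 0.377.

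The members on the tissue and pathway lists are given here, and 0.589% of all genes above the minimum met the rule. pmaip1 (NOXA), which promotes cell death downstream of p53, was the only member among 19 p53 target genes above the minimum. It was at 40.01, 40.6, 44, 43.2 and 45.9 CPM in WT and 25.3, 23.3, 23.7, 30.4 and 23.6 CPM in crispants, whereas mdm2, another p53 target, was at 37.2, 43.9, 43.7, 39.8 and 41.9 CPM in WT and 43, 45.1, 47.1, 40.1 and 42 CPM in crispants, with overlapping groups. TIMP2 stood on the list of 20 osteoblast and bone matrix genes and on that of 22 matrix and protease genes, sgk1 among 13 glucocorticoid response genes, tefb among 22 clock genes, IGFBP1 and SLC2A1 among 16 hypoxia genes, and ATF3 and FOSB among 16 immediate early and heat shock genes. TIMP2, IGFBP1 and SLC2A1 were matched by symbol without the closing letter of the listed zebrafish copy, so each may be another copy. TIMP2 fell on both of its lists in this way. The median ratios of these lists were 0.906 for p53 targets, 1.08 for osteoblast genes, 0.754 for glucocorticoid response genes, 0.447 for clock genes, 0.788 for hypoxia genes and 0.897 for immediate early genes. No member was on the lists for the cell cycle, cartilage, macrophages and osteoclasts, neutrophils, innate immunity, liver, pancreas, intestine, sterol synthesis, photoreceptors, lens, skeletal muscle, heart, red blood cells, skin, pigment cells, neurons, autophagy or the mitochondrial genome. Genes of all these tissues were measured above the minimum, so the libraries carry the markers of whole larvae. With 0.589% of all genes as members, the absence of members from a short list is not read as a result.

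The levels of members differed between the 2 sets of libraries, as did those of many other genes. The order of sets is therefore not read as particular to the members. In the first set the ratio of crispant to WT mean had a median of 0.491 and ran from 0.129 to 0.852, and in the second set a median of 0.462 and a range from 0.0238 to 0.923. The ratio was smaller in the second set for 59 members and smaller in the first for 61. FOSL1 had ratios of 0.406 and 0.0704 in the first and second set, and ATF3 had 0.597 and 0.199. si:dkey-104n9.1 went the other way, with 0.129 and 0.663, and so did lonrf1, with 0.301 and 0.794. The WT libraries of the second set all lay above those of the first for 39 members, where the share of all genes was 34.3%, and all below them for 42, where it was 27.4%. For the other 39 the WT sets overlapped. In crispants the second set lay above the first for 26 members (35.8% of all genes) and below it for 40 (27.5%).

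**Figure D2:**
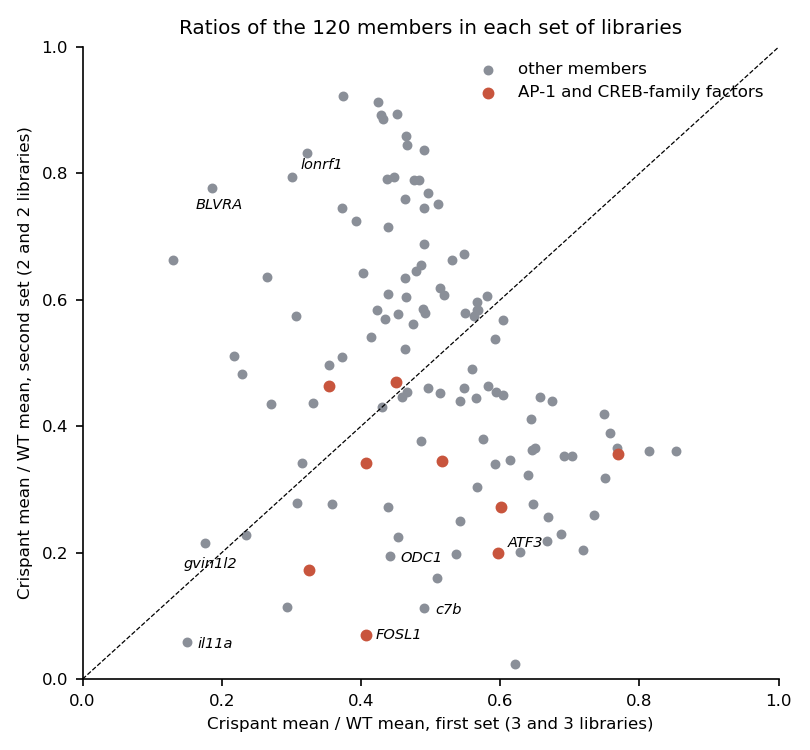
Ratio of crispant mean to WT mean in the first set (x axis, 3 WT and 3 crispant libraries) against the second set (y axis, 2 and 2 libraries) for each of the 120 members, with the 9 AP-1 and CREB-family factors in red and the dashed line where both ratios are equal. Points spread away from the line on both sides, from FOSL1 at 0.406 and 0.0704 to lonrf1 at 0.301 and 0.794.

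Gene lists, some of them holding members, moved with these sets and are given beside the members. Clock genes parted the first WT set from all other libraries, with 18 of 22 of the list higher in WT 1 to 3 than in every other library of the crispant experiment. Their summed level was 4516 to 4891 CPM in the first WT set, 3059 to 3227 CPM in the second, and 2541 to 2557 and 2599.6 to 2649 CPM in the crispants of the 2 sets. None of the 22 was at 0 in any of these libraries. The hour of sampling is not in the labels, and the part of the clock in the members' levels was not tested. Among the members, NOCT and tefb are known as rhythmic genes.

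In the second set, MMP9, a matrix metalloproteinase of inflammation and of bone resorption, was high in WT only, with 12, 15, 12.8, 357 and 93.6 CPM in WT and 13.5, 14.2, 15.8, 10.2 and 10.2 CPM in crispants. It is not a member, because the first sets overlapped. All 6 neutrophil genes were higher in the second than in the first WT set, and their sum ran from 60.6 to 62.7 CPM in the first WT set, from 166 to 456 CPM in the second and from 66 to 78.2 CPM over all crispants. MMP9 made up most of the highest sum, while lyz, the lysozyme that defines these cells, was at 2.4, 2.21, 2.0, 4.29 and 5.74 CPM in WT and 2.71, 3.13, 3.96, 5.24 and 4.77 CPM in crispants. The 16 macrophage and osteoclast genes summed to 150.2 to 159, 277 to 594 and 182 to 207 CPM in the same groups. MMP9 is on this list too and made up most of its highest sum. The 13 innate immune and acute phase genes summed to 436 to 452 CPM in the first WT set, 1652 CPM in WT 4, 686 CPM in WT 5 and 517 to 560.5 CPM in crispants, with 11 of 13 highest in WT 4. Of 16 immediate early and heat shock genes, 10 were higher in WT 4 and WT 5 than in all other libraries of the experiment. No gene of these lists was at 0 in a library of this experiment. Their part in the higher WT levels of FOSL1, ATF3, ODC1 or c7b in the second set was not tested.

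**Figure D3:**
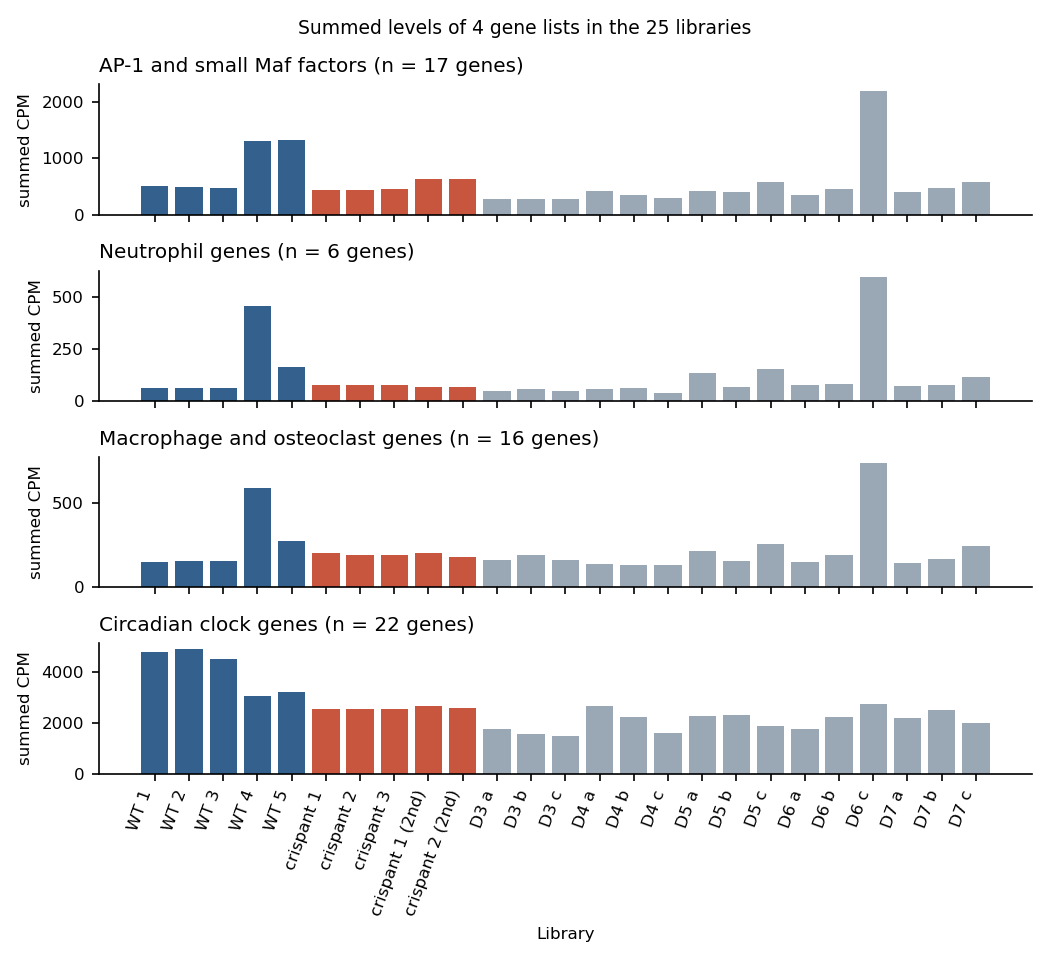
Summed CPM (bars, from 0) of 4 gene lists in each of the 25 libraries, with WT in blue, crispants in red and the DEX course in grey. The AP-1 sum stands highest in the c library of D6 and next in WT 4 and WT 5, the neutrophil and macrophage sums stand highest in the c library of D6 and WT 4, and the clock sum is highest in WT 1 to 3. MMP9 is on both the neutrophil and the macrophage list and makes up most of their sums in the c library of D6 and WT 4. The AP-1 list holds 6 members, and the clock list holds the member tefb.

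The DEX course, whose libraries the rule did not use, gave levels for 117 members that passed the filter on low counts, among 21750 genes tested. The 3 others, si:ch211-129i21.3, zgc:171490 and si:ch211-181p13.2, stayed below 1 CPM in each of these libraries. The quasi-likelihood test of edgeR was applied in a model of all 15 libraries with 5 day groups, with p-values adjusted by the Benjamini-Hochberg method over all tested genes and a threshold of 0.05. Between D3 and D7, 25 members were higher on D7 and 4 lower, which is 21.4% and 3.42% of those tested. Over all genes the shares were 11.7% and 13.4%. In both directions together 29 members were called, 24.8% of those tested beside 25.1% of all genes. The number of calls was thus near that of genes at large, and the shares differed by direction. Leaving out the a library of D3 gave 15 higher and 1 lower, beside 5.74% and 9.01% of all genes, and leaving out the c library of D6 gave 41 and 7, beside 14.8% and 14.5% of all genes. The number lower was 1 without the b library of D3 (8.71% of all genes) or of D7 (8.32%), 2 without the c library of D7 (12.8%) and 0 without the a library of D7 (8.12%). The median log2 fold change was 0.83 over the members and 0.06 over all genes. Any difference among the 5 days was called for 32 members, 27.4% of them beside 16.9% of all genes. This number was 16 without the a library of D3 (10.2% of all genes), 17 without the b library of D3 (10.3%), 21 without the a library of D4 (12.7%) and 50 without the a library of D6 (17.0%). DESeq2 called 53, beside 26.8% of all genes. An edgeR fit with a block for the library letter called 46 over the days (29.7% of all genes). For D7 against D3 it called 42 higher (17.4%) and 3 lower (18.9%).

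The rises from D3 to D7 of DDIT4, pmaip1 and IGFBP1 were over 8-fold, without overlap of the libraries and with every D3 library above 0. In CPM, DDIT4 was at 21.6, 22.7 and 15.9 on D3, 93, 137 and 66.6 on D4, 188, 132 and 133 on D5, 222, 226 and 175 on D6, and 355, 428 and 100.3 on D7. Its log2 fold change from D3 to D7 was 3.95 ± 0.40 (SE, n = 3 and 3; adjusted p = 4.53e-05, edgeR), and each D7 library lay above each D3 library, although the c library of D7 was low beside a and b. In CPM, pmaip1 was at 2.77, 3.91 and 3.21 on D3, 6.47, 9.72 and 6.69 on D4, 15.7, 11.9 and 21.4 on D5, 18.3, 17.6 and 28.1 on D6, and 27.9, 32.8 and 33.2 on D7. It rose by 3.40 ± 0.35 on the log2 scale (adjusted p = 4.53e-05, edgeR), with day means of 3.29, 7.63, 16.3, 21.3 and 31.3 CPM that went up on each day. In CPM, IGFBP1 was at 14.4, 11.9 and 22.1 on D3, 14.8, 14.8 and 15.4 on D4, 21.5, 33.2 and 75.3 on D5, 56.4, 84.5 and 234 on D6, and 166, 202 and 137 on D7. Its rise was 3.50 ± 0.59 on the log2 scale (adjusted p = 0.000965, edgeR), and it began after D4. The c library of D6, at 234 CPM, held its highest level of the course. No call on these 3 was lost when any 1 of the 15 libraries was left out. In crispants DDIT4, pmaip1 and IGFBP1 stood at 0.492, 0.591 and 0.509 of their WT means.

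The other named rises were smaller or rested on fewer counts. c7b rose from 5.47, 4.68 and 3.97 CPM on D3 to 30.4, 33.1 and 21.5 CPM on D7, a log2 fold change of 2.72 ± 0.72 (adjusted p = 0.014, edgeR). si:ch73-335l21.4 rose from 4.55, 4.81 and 4.46 CPM to 25.3, 28.5 and 24.3 CPM, by 2.64 ± 0.81 (adjusted p = 0.0293, edgeR). Both had far higher levels in the c library of D6, 190.5 CPM for c7b and 179 CPM for si:ch73-335l21.4, than in any other DEX library. tnni4b.1, a troponin I gene of muscle, rose from 0.329, 0.384 and 0.489 CPM to 1.44, 1.61 and 3.45 CPM, by 2.61 ± 0.73 (adjusted p = 0.0195, edgeR) but was already at 4.4, 3.67 and 2.66 CPM on D4. rnf207a, a RING-finger gene, went from 0.0659, 0 and 0.761 CPM to 2.45, 2.85 and 2.12 CPM, by 3.16 ± 0.86 (adjusted p = 0.0164, edgeR). srsf3a had no count in any D3 library and 0.433, 0.731 and 0.121 CPM on D7 (adjusted p = 0.00426, edgeR), so no fold is given. In the model of D3 and D7 alone it failed the filter on low counts. It was thus tested only beside the other days, and its call rests on few counts. The call on c7b was lost without library a or b of D3 (log2 fold changes of 2.78 and 2.73), and that on rnf207a without the a library of D3 (2.69). For rnf207a the log2 fold change was 6.10 without the c library of D3, which held most of its D3 level, and the model of D3 and D7 alone lost the call (3.15, adjusted p = 0.0645, edgeR). That on tnni4b.1 was lost without the a or b library of D3 or the c library of D7 (2.46, 2.58 and 1.98). That on si:ch73-335l21.4 was lost without any 1 of the D3 libraries or the a or b library of D7, at log2 fold changes of 2.58 to 2.74.

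Further members called higher on D7 covered several roles. PNP (ENSDARG00000078619) rose from 62.5, 79.8 and 95.8 CPM on D3 to 163, 229 and 199 CPM on D7, by 1.45 ± 0.41 on the log2 scale (adjusted p = 0.0206, edgeR). The clock-controlled tefb went from 31.4, 25.1 and 14.6 CPM to 94.3, 107 and 26 CPM (adjusted p = 0.0125, edgeR), with the c library of D7 near the D3 level. lonrf1 went from 47.6, 47.8 and 42 CPM to 86.3, 95.4 and 69.4 CPM (adjusted p = 0.0222, edgeR). By role, 4 of 11 tested kinases and adaptors, 3 of 12 secreted proteins, 3 of 9 lipid genes, 3 of 8 other transcriptional regulators and 2 of 5 polyamine, nucleoside and haem enzymes were called higher on D7. Of the 9 AP-1 and CREB-family factors, the 10 transporters and the 4 receptors, 0 were called in either direction with edgeR. Over all genes, 11.7% were called higher and 13.4% lower, and the counts by role are small. At an unadjusted p below 0.05 by edgeR, 3, 2 and 2 of these last groups were higher on D7 and 0 lower, and the share over all genes at that threshold is not given here. DESeq2 called 1, 2 and 2 higher and 0 lower, beside 14.7% and 15.2% of all genes. The median log2 fold change of the 9 AP-1 and CREB-family factors was 1.25.

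Members that fell from D3 to D7 were few. ldah went from 4.74, 5.38 and 5.11 CPM to 2.09, 2.92 and 1.45 CPM, a log2 fold change of -1.12 ± 0.29 (adjusted p = 0.0124, edgeR). BLVRA went from 7.05, 4.93 and 3.15 CPM to 2.89, 2.48 and 1.63 CPM, by -0.97 ± 0.32 (adjusted p = 0.0393, edgeR), and FRMD4B (ENSDARG00000076496), a scaffold protein with a FERM domain, from 11, 8.14 and 5.38 CPM to 4.48, 5.04 and 2.78 CPM, by -0.86 ± 0.27 (adjusted p = 0.0323, edgeR). In each of the 3 the D7 libraries lay below the D3 libraries. gvin1l2 was called too, at -2.36 ± 0.70 (adjusted p = 0.0241, edgeR), but its c library of D3, at 5.98 CPM, lay inside the range of D7. The call on BLVRA was lost in 12 of the 15 fits that left out 1 library, at log2 fold changes of -1.07 to -0.72. That on FRMD4B was lost without the a or b library of D3 or any 1 of the D7 libraries, at -0.93 to -0.65, and that on ldah without the a or the c library of D7, at -1.04 and -0.94.

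**Figure D4:**
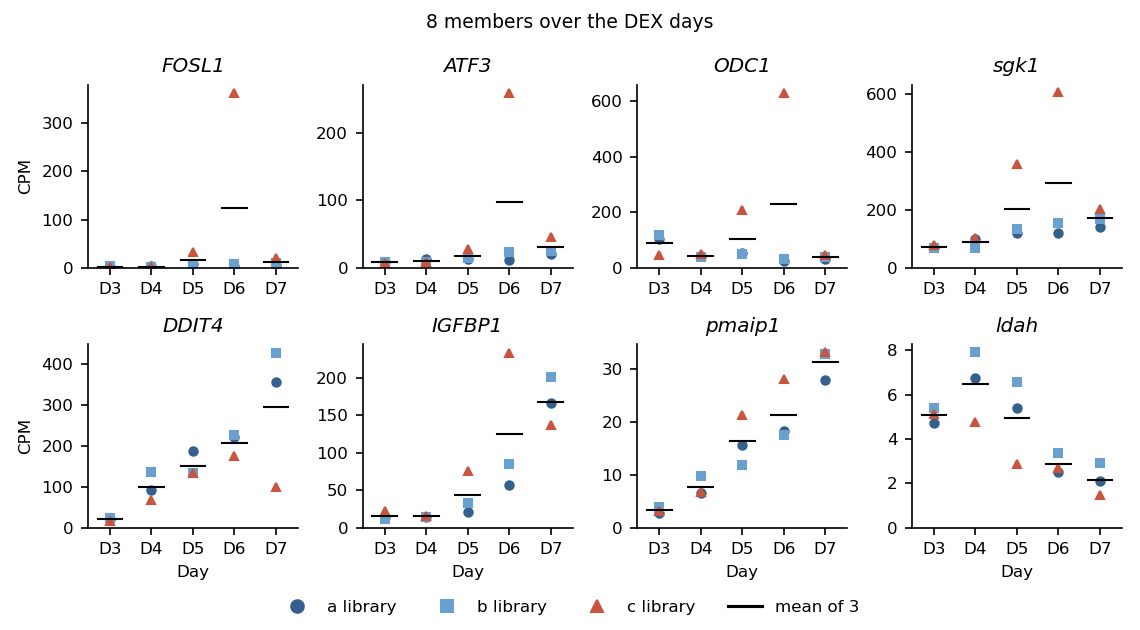
CPM (linear axes from 0) of 8 members on the 5 DEX days, with the a, b and c libraries as circles, squares and triangles and a bar for the mean of 3. FOSL1, ATF3, ODC1, sgk1 and IGFBP1 are highest in the c library of D6. DDIT4, IGFBP1 and pmaip1 are higher on D7 than on D3 in all libraries, and ldah is lower.

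A single DEX library stood apart for the members. Of the 117 tested, 78 (66.7%) had their highest level of the course in the c library of D6, beside 16.4% of all tested genes. In 35 members (29.9%) that library held at least 2 times the level of every other DEX library, beside 1.69% of all genes. On the log2(CPM + 0.5) scale, members in the c library of D6 lay at a median of 1.31 above their own median over the 15 libraries, with quartiles of 0.44 and 2.26. In the other 14 libraries this median ran from -0.51 to 0.34, and over all genes it was -0.11 in the c library of D6. Its total count and its share of mitochondrial reads were within the range of the other libraries.

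**Figure D5:**
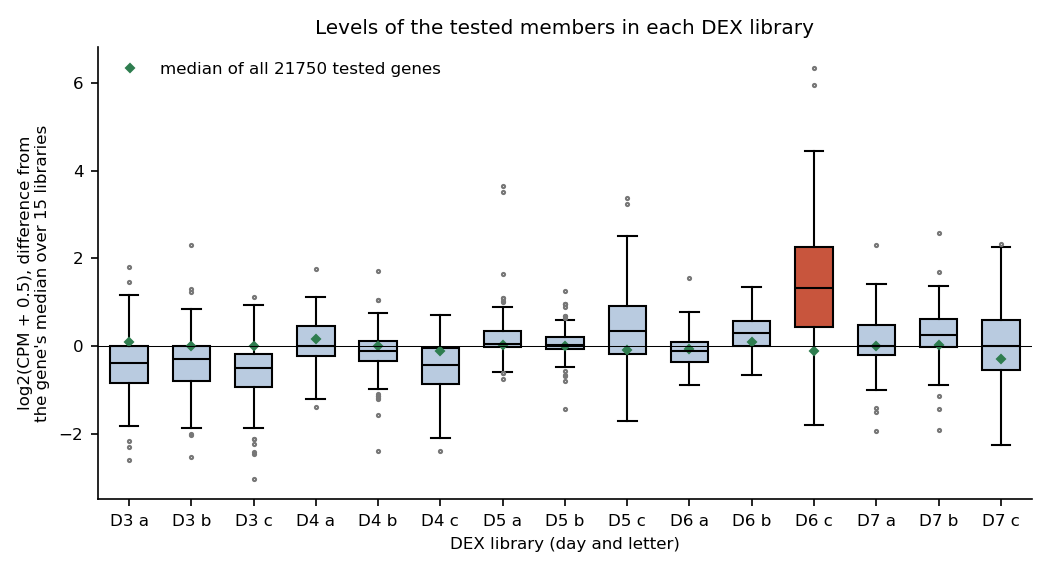
Difference of log2(CPM + 0.5) from each gene's own median over the 15 DEX libraries, as boxes (median, quartiles, whiskers to 1.5 times the box) over the 117 tested members in each library, with green diamonds for the median over all 21750 tested genes. The c library of D6 has a member median of 1.31, whereas no other library exceeds 0.34.

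In CPM, FOSL1 was at 2.11, 2.95 and 1.47 on D3, 3.17, 2.24 and 2.11 on D4, 6.9, 5.34 and 32.9 on D5, 3.18, 7.48 and 362 on D6, and 5.63, 8.91 and 20.5 on D7. The c library of D6 was thus 11.0 times as high as the next, the c library of D5. In CPM, ATF3 was at 8.7, 7.88 and 7.01 on D3, 12.3, 8.09 and 8.62 on D4, 12.4, 14.1 and 27.6 on D5, 11.1, 23.1 and 259.8 on D6, and 20.6, 25.4 and 45.1 on D7. In CPM, ODC1 was at 105, 116 and 47.1 on D3, 42.6, 39.5 and 49.7 on D4, 52.9, 48.7 and 207 on D5, 26, 32.5 and 630.4 on D6, and 30.1, 38.4 and 45.6 on D7, and its a and b libraries were lower on D6 than on D3. All 3 had their second highest level in a c library, of D5 for FOSL1 and ODC1 and of D7 for ATF3.

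The same library was the highest for members of nearly all roles. It held the highest level of 8 of 9 AP-1 and CREB-family factors, all but MAFK, which was at 1.36, 1.76 and 1.23 CPM on D6 and 2.6, 3.0 and 0.242 CPM on D7. It was highest for 8 of 11 kinases and adaptors, all 4 receptors, 9 of 12 secreted proteins, 6 of 9 lipid genes, 6 of 10 transporters, 6 of 8 other transcriptional regulators and 3 of 5 polyamine, nucleoside and haem enzymes. Among secreted members, il11a was at 0.61, 0.781 and 8.65 CPM on D6. Among signalling members, sgk1 was at 119.6, 153 and 606 CPM, ARRDC3 (ENSDARG00000036028) at 149, 149.7 and 826 CPM and SIK1 at 42, 66.6 and 229.6 CPM. Transport and enzyme members followed, with SLC20A1 (ENSDARG00000010641) at 104.3, 153 and 738 CPM and SAT1 (ENSDARG00000095908) at 119.7, 128 and 615 CPM. DDIT4, at 222, 226 and 175 CPM, NOCT (ENSDARG00000077726), at 18.4, 28 and 23.2 CPM, and cited4a, at 71.6, 89.9 and 75.8 CPM, did not stand out in that library.

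Members that were higher in the second WT set were highest in this DEX library most often. Of the 39 members whose WT libraries of the second set all lay above those of the first, 35 (89.7%) had their highest DEX level there and 23 (59.0%) reached 2 times every other library. Over all genes with that order of WT sets, the shares were 22.7% and 2.6%. Of the 42 members with the first WT set above the second, 22 (52.4%) were highest there and 6 (14.3%) reached 2 times, beside 11.5% and 0.765% of all such genes. Thus the higher share went with that order of sets among members and among all genes. In the c library of D6 the 17 AP-1 and small Maf genes summed to 2191 CPM, against 270.0 to 574 CPM in the other 14 libraries. MMP9 was at 9.28, 20.9 and 500.5 CPM on D6, and between 4.94 and 93.7 CPM in all other DEX libraries. The neutrophil genes summed to 598 CPM there and to 40.02 to 156 CPM elsewhere, but 3 of the 6 were highest in that library and lyz, at 3.12, 2.21 and 1.1 CPM on D6, was not. The macrophage and osteoclast genes summed to 739 CPM there and to 130.2 to 258 CPM elsewhere, with 7 of 16 highest in that library. MMP9 is on both of these lists and made up most of both sums there. Immediate early and heat shock genes summed to 11561 CPM there and to at most 8342 CPM elsewhere, with 14 of 16 highest, hypoxia genes to 2032 and at most 1504 CPM, with 7 of 16 highest, and innate immune genes to 956 and at most 678 CPM, with 7 of 13 highest. The glucocorticoid response, clock, polyamine and p53 target lists also had their highest sums of the course there, at 3552, 2734, 2986 and 1669 CPM. Elsewhere these sums reached at most 3348, 2650, 2321 and 1666 CPM, so the p53 target sums were nearly equal. Several of these sums include members, and to that extent they restate the members' own levels. The polyamine list holds ODC1 and SAT1, the glucocorticoid response list sgk1, the clock list tefb and the p53 target list pmaip1. IGFBP1 and SLC2A1 are on the hypoxia list, ATF3 and FOSB on the immediate early list, and 6 members on the AP-1 and small Maf list. Sums without the members were not computed. The osteoblast, cartilage, photoreceptor, lens, red blood cell and neuron lists had their lowest sums of the course in that library, with 350.2 CPM for cartilage against 590.3 to 8061 CPM elsewhere and 1732 CPM for photoreceptors against 1949.8 to 11137 CPM. What part any of these has in the members' levels was not tested.

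The day of the highest mean changed when the c libraries of all days were left out. Day means without the c library of D6 alone are not given here. Over all 15 libraries, D6 held the highest day mean of 77 of 117 members, beside 19.9% of all genes. The others had it on D3 (8 members, 34.2% of all genes), D4 (8, 15.4%), D5 (7, 8.93%) or D7 (17, 21.6%). With the a and b libraries alone it was highest on D6 for 12 (9.55% of all genes) and on D7 for 48 (27.4%), with 15 on D3 (33.6%), 22 on D4 (18.5%) and 20 on D5 (11.0%). Compared with D3, a comparison added after these values were seen, 51 members were higher on D6 and 0 lower by edgeR, beside 8.96% and 10.3% of all genes, and the median log2 fold change was 1.37. At an unadjusted p below 0.05 by edgeR, 71 were higher and 2 lower, and the share over all genes at that threshold is not given here. DESeq2 called 61 higher (12.3% of all genes) and 0 lower. Without the c library of D6, 22 members were higher (18.8%, beside 6.69% of all genes), and all 22 were among the 51. DDIT4, at 222, 226 and 175 CPM on D6 and 21.6, 22.7 and 15.9 CPM on D3, was called either way. With the a and b libraries only, 58 members (50.0%) were higher on D6 than on D3, beside 22.5% of all genes, and 45 of them were among the 51. Leaving out library a or b of D3 gave 21 and 19 members, beside 3.59% and 3.73% of all genes.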

How the data were processed

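RNA was taken from whole zebrafish larvae and read by RNA sequencing. According to the submitters' processing notes the authors used Trim Galore, STAR 2.7.8 and HTSeq 0.13.5 with the GRCz11 genome. The annotation release and strand setting are not given in the sources used here, so reads on overlapping, antisense or near-identical genes are uncertain. The authors deposited whole-number read counts per gene, unnormalized, for 32520 genes in 2 tables. No column was left out. Symbols came from a separate table of gene names, for 29201 genes. CPM was computed from column totals, which give the depth behind every level. DEX counts were tested with edgeR 4.0.16 in R 4.3.3 (TMM scaling, filterByExpr, quasi-likelihood test), with DESeq2 1.42.0 as an alternative, and the test was first tested on simulated data. The members had been chosen from these same crispant libraries, so the crispant contrast was not tested. Members, gene lists, families and role groups were chosen with earlier results of these data known, and role groups, families, the comparison of D6 with D3 and the fits on the a and b libraries were added after values were seen. Genes picked by rule were cdkn1a for reference and several kinds of members. The first were 15 with a symbol, a mean of at least 5 CPM and the smallest ratios. Next came the 10 with the highest WT means, those on a gene list and genes at a threshold. Among members that passed the test between D3 and D7 without overlap, the 8 largest rises and up to 8 largest falls were taken. Some of these genes are given by ratio or mean only. Others were described by role and were chosen after their values were seen. Alternatives covered scaling, filters, the tool, a replicate block, and leaving out each library. The remaining members are counted and not named.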

Additional observations from a re-analysis of the deposited data

Results flagged for a closer look

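The WT or the crispant libraries of 1 gene made a group of 5, and 74 such groups were examined. In 9 of them a library lay far from the other 4 by Dixon's criterion. The criterion's chance rate of about 1 in 20 assumes 5 values drawn alike. It cannot be compared with the 9 found, because WT and crispant libraries each fell into sets with different levels. Members were also chosen on these same values. The 9 are therefore a description. In WT 4, c7b was at 211 CPM, slc2a3b at 17.7 CPM and TIMP2 at 37.7 CPM, and in each case the other 4 WT libraries lay well below. FOSB was at 34.4 CPM in WT 5, and tnni4b.1 at 4.50 CPM in WT 3. In the crispants the distant libraries were all of the second set. IGFBP1 was at 122 CPM and pmaip1 at 30.4 CPM in one of them, and SIK1 at 144 CPM and MIDN at 101 CPM in the other. Each of these crispant values still lay below every WT library, as the choice of members requires.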

How the results depend on the processing

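The number of genes meeting the rule was 120, and 61 with a ratio of at most 0.5, 401 with no limit on it, and 114 to 196 when 1 library was left out. The 29 members called between D7 and D3 were 24.8% of those tested, near the 25.1% of all genes. Leaving out 1 library gave 16 to 48, which is 13.7% and 41.0% of members beside 14.7% and 29.3% of all genes in those fits. The 25 higher gave 15 to 41 and the 4 lower gave 0 to 7. The 32 changed over the days gave 16 to 50, with 53 by DESeq2. The 51 higher on D6 gave 19 (3.73% of all genes) to 59, the latter without the a library of D6 (8.93%) or the c library of D5 (9.08%). A model of D3 and D7 alone gave 2 lower, beside 12.8% of all genes. With the a and b libraries only, added after seeing the data, 76 were called between D7 and D3 (62 higher, 14 lower) and 79 over the days, beside 51.1% (27.4%, 23.7%) and 48.3% of all genes. The letters a, b and c stand in no label, and same-letter libraries deviated together with a mean correlation of 0.422 over 30 pairs. The highest was 0.749. Since 1 pair was at 0.1 or less (0.0721), the letters were not taken as pairs in the main fits. The calls of the main fits therefore leave this likeness out of account. A replicate block by letter gave 45 members called and 42 higher, 38.5% and 35.9% of those tested beside 36.2% and 17.4% of all genes. It gave 46 changed over the days and 57 higher on D6, beside 29.7% and 15.2% of all genes. Of the alternatives run on the 11 named members, 36 values lost the call and 0 reversed. The causes were not tested. How depth (13685297 to 21812411 counts per DEX library) bears on the calls was not tested.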
